A study of Mus musculus with 2 samples.

Results

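The genes described here are 33 that carry pyruvate into the mitochondrion, oxidise it and feed the citric acid cycle, with the enzymes that refill the cycle and exchange its intermediates with the cytosol. They were taken by name from the annotated genes of a long-read transcriptome of mouse gastrocnemius, a calf muscle made mostly of fast fibres. All 33 had reads, among 14451 annotated genes with any. The reads came from 2 libraries, labelled biological replicates 1 and 2 of 1 group: female adult B6CASTF1/J mice (a first-generation hybrid strain) with no treatment named, aged 18 to 20 months. Each library was started from 2 µg of RNA with spike-in controls. Both carry the same donor record and the same pair of identifiers, and the number of animals behind each is not stated, so a difference between them compares 2 libraries and no condition.

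Pyruvate from glycolysis enters the mitochondrion through the carrier MPC1 and MPC2 and is turned into acetyl-CoA by the pyruvate dehydrogenase complex. Kinases of the PDK family switch the complex off by phosphorylating it and phosphatases switch it on again. Acetyl-CoA then enters the citric acid cycle, whose dehydrogenases supply NADH to the respiratory chain. In muscle these steps set how far carbohydrate is oxidised, and oxidative fibres hold more of the cycle's enzymes than glycolytic fibres do.

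Replicate 1 held 1117891 reads of annotated endogenous genes and replicate 2 held 975696. Levels are CPM, a gene's reads scaled to a fixed total of these reads, given for each library or as mean ± SD over both (n = 2). Each long read stands for 1 cDNA molecule, so CPM was not divided by transcript length. A count of 0 allows a level of up to 2.68 CPM in replicate 1 and 3.07 in replicate 2, that of 3 reads. Spike-in controls took a further 30211 reads in replicate 1 and 7609 in replicate 2 and were not used for scaling. The libraries differed in fibre genes. The 8 slow fibre markers summed to 771 CPM in replicate 1 and 5481 in replicate 2. Of the fast myosins, Myh1 had 1360 and 7263 CPM and Myh2 had 312 and 2036. Of the 7 fast glycolytic markers 4 were called higher in replicate 1 (Tnnt3, Tnni2, Tnnc2 and Mylpf) and 3 in replicate 2 (Myh4, Actn3 and Atp2a1). The 5 fibroblast markers summed to 325 and 451 CPM, with 3 called higher in replicate 2 (Col1a1, Col1a2 and Col3a1) and 1 in replicate 1 (Dcn). The erythroid, tenocyte, Schwann and macrophage markers were each lower in sum in replicate 2. Of the cardiac markers Nppa and Ryr2 had 0 reads and Myh6 had 0 and 5. The part of these differences in the results below was not tested, and in bulk tissue fewer cells of a type and less RNA per cell cannot be told apart.

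Together the 33 genes took 0.968 ± 0.160% (SD, n = 2) of the reads, as 8553 CPM in replicate 1 and 10814 in replicate 2. Idh3a, which encodes the catalytic subunit of the NAD-dependent isocitrate dehydrogenase, was the most abundant by mean CPM and ranked 81 among all genes. Pdha1, the catalytic subunit of pyruvate dehydrogenase, and Mdh2, mitochondrial malate dehydrogenase, followed at ranks 94 and 100. These 3 genes gave 23.3% of the group's reads and the first 10 gave 61.5%. In both libraries 24 genes reached 100 CPM, and only Idh1, Aco1 and Pdk3 stayed below 50 CPM in both.

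**Figure D1:**
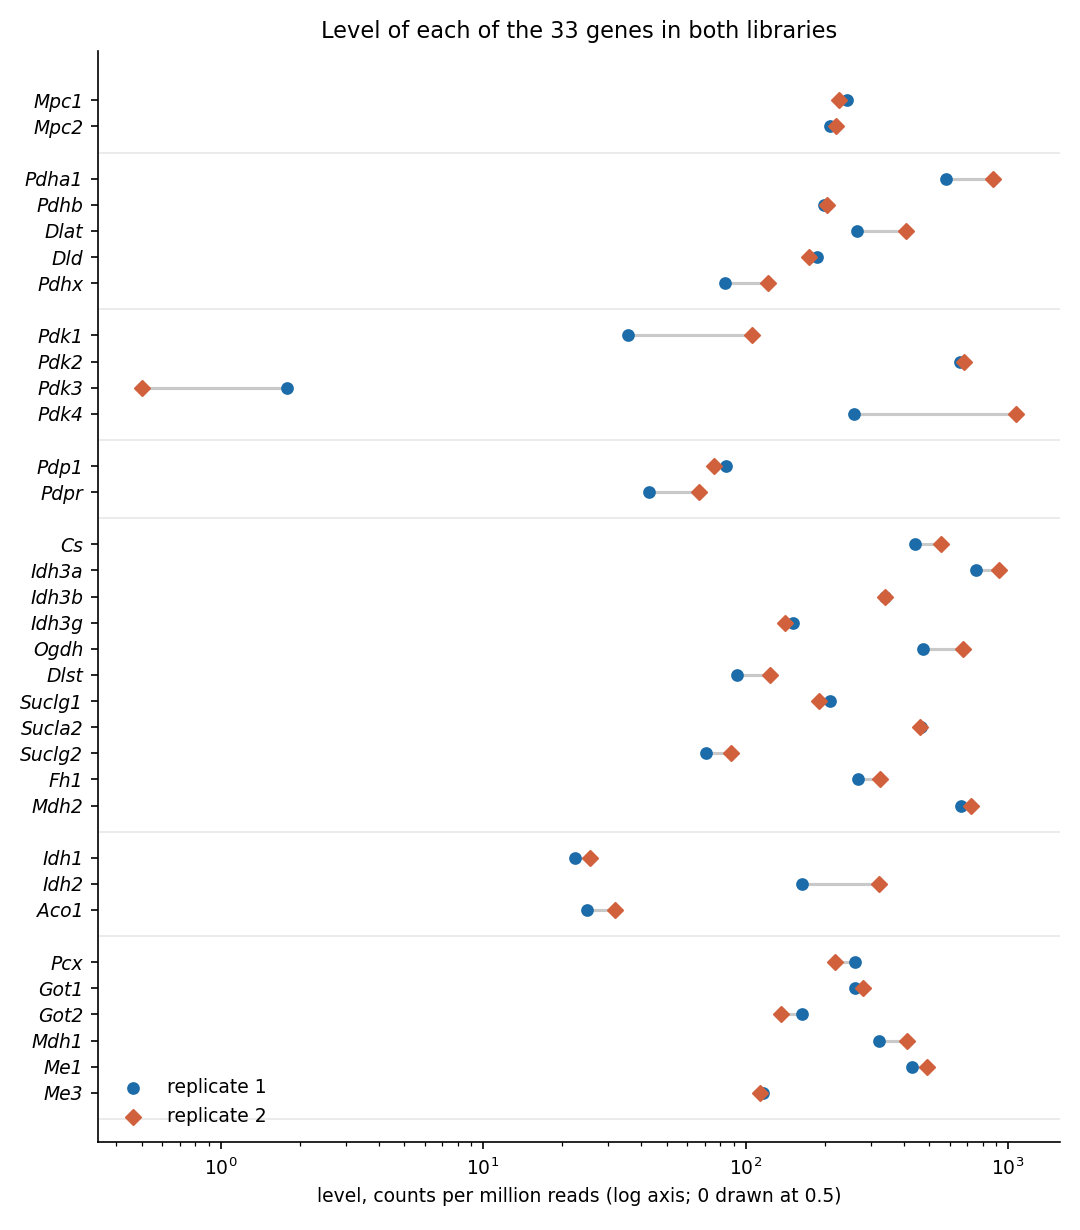
Level of each gene in CPM (log axis) in replicate 1 (circles) and replicate 2 (diamonds), grouped by role from carrier to shuttle; a level of 0 is drawn at the left edge. Most pairs lie close together, Pdk4 and Pdk1 lie farthest apart among the genes with 10 or more reads, and Pdk3 had 2 reads in replicate 1 and 0 in replicate 2.

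Of the 32 genes whose summed count in the pair was 10 or more, 13 were higher in replicate 2, 0 in replicate 1, and 19 did not pass (2-sided exact binomial test against TMM-scaled library sizes, Benjamini-Hochberg over 8394 genes). Of all 8394 genes the test called 11.7%, of which 7.06% of genes were on the side of replicate 2 and 4.61% on that of replicate 1. All 32 members tested had at least 50 reads over both libraries. When only the 3993 genes of that depth were tested, 24.6% were called, 579 higher in replicate 2 and 404 in replicate 1. Of the 32 members 15 were then called. The counts by role below are parts of the 13 and stand beside the same shares. At an unadjusted p below 0.05 the 32 members gave 16 higher in replicate 2 and 0 in replicate 1. With replicate 1 over replicate 2 as the ratio, the median log2 value was -0.30 for the 32 genes, with 28 below 0, against -0.01 for all genes tested. This test knows counting error only. With the scatter between the libraries included, as a common dispersion of 0.0622 in edgeR's exact test, only Pdk4 remained, at an adjusted p of 0.0301, when 0.286% of all genes were called. That dispersion was estimated from the same 2 libraries, treated as a single group, and was the same for every gene. It is therefore no independent measure of the scatter between replicates, which these libraries cannot give.

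**Figure D2:**
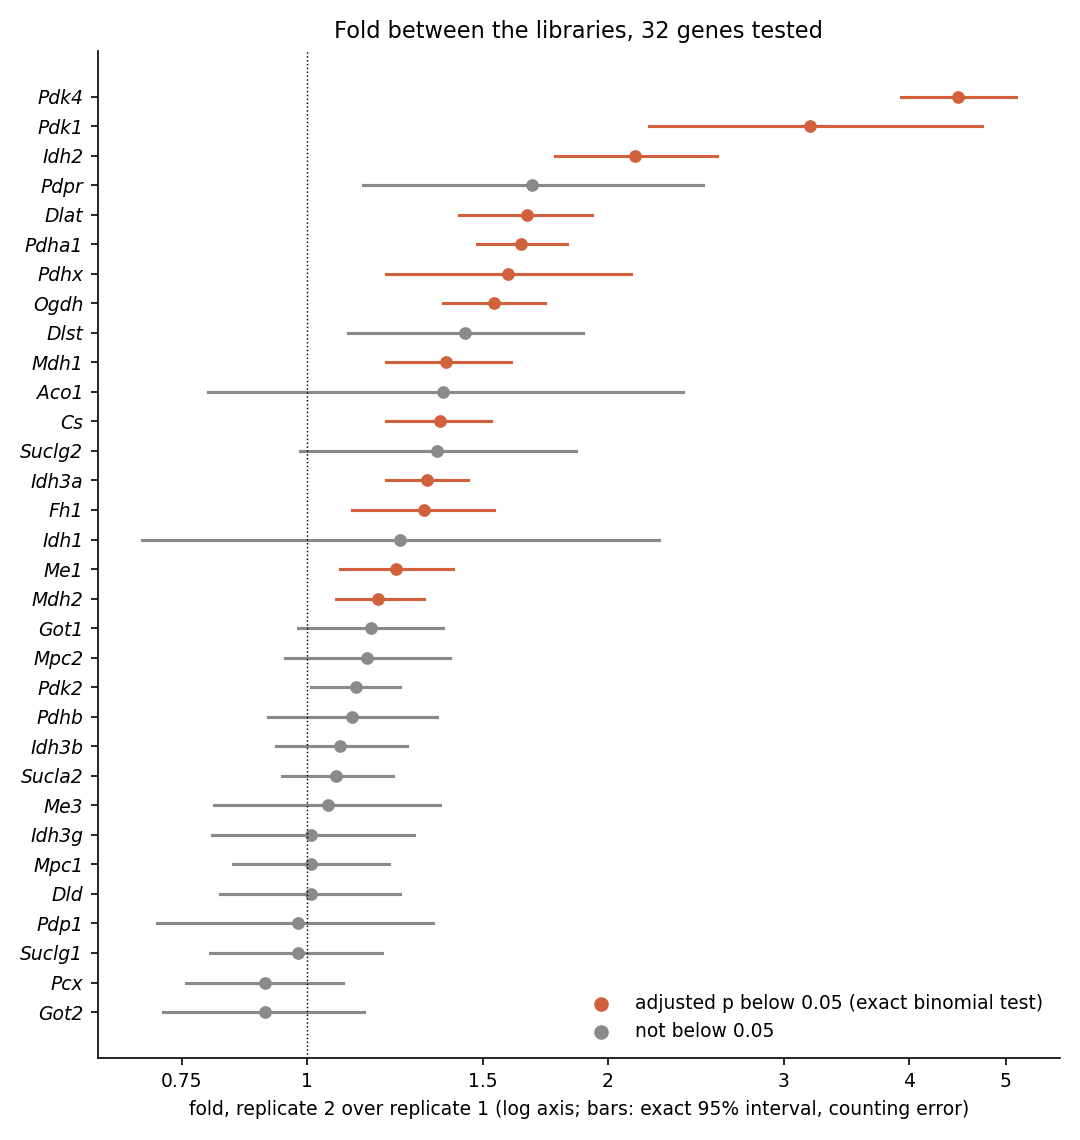
Fold of replicate 2 over replicate 1 (log axis) for the 32 genes tested, with exact 95% intervals that cover counting error only; orange marks the 13 genes with an adjusted p below 0.05. All 13 lie to the right of 1, from 1.18 for Mdh2 to 4.48 for Pdk4, and no gene was called on the left.

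The mitochondrial pyruvate carrier is a pair of small inner-membrane proteins. Mpc1 had 243 CPM in replicate 1 and 228 in replicate 2, and Mpc2 had 209 and 222. Neither differed beyond counting error (fold 1.01, 95% interval 0.844 to 1.21, and 1.15, 0.952 to 1.39), and their reads were close to equal, with Mpc1 giving 53.8% of them in replicate 1 and 50.6% in replicate 2.

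The transcript models that the spliced reads of Mpc1 were given lacked a very short annotated exon. Annotated Mpc1 transcripts hold a 4-base coding exon after their first exon, either at chr17:8293415-8293418 (Mpc1-208) or at chr17:8296527-8296530 (Mpc1-201; mm10, plus strand). The 40 to 44 bases around it are shown because the reads' chain differs there, with the short exon in capitals:
Mpc1-208, GENCODE M21: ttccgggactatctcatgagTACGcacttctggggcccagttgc
Mpc1-201, GENCODE M21: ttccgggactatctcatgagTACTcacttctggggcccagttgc
leading chain of the reads: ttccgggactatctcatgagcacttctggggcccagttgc
Mpc1-ps, GENCODE M21: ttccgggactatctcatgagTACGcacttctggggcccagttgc
The leading chain, with 260 of 270 spliced reads in replicate 1 and 208 of 219 in replicate 2, joined the flanking exons by the single unannotated intron chr17:8283962-8296534 and held neither short exon. No Mpc1 model with reads in either library held a 4-base exon. The bases printed for the leading chain are GENCODE M21 bases joined as the model joins them. Whether the molecules lacked the exon was not tested. Read from the annotated start codon, this chain stops after 42 codons, before its last exon, while Mpc1-201 and Mpc1-208 run to 109 codons. An 81-base exon of Mpc1-202 that begins at the same acceptor was included in 2.99% of 268 spanning reads (Wilson 95% interval 1.52 to 5.78) and 1.86% of 215 (0.726 to 4.69).

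Mpc1 also has a processed pseudogene, an intronless copy, at chr12:110858565-110858894 (minus strand, Mpc1-ps). Its 330 annotated bases match the coding sequence of Mpc1-208 with 1 mismatch (99.7% identity), and, as printed above, hold the 4 bases that the spliced models lack. The pseudogene was given 213 reads in replicate 1 and 156 in replicate 2, which is 43.9% (39.6 to 48.4) and 41.3% (36.4 to 46.3) of the sum with Mpc1. Which of these reads came from Mpc1 RNA was not tested, so the level of Mpc1 is uncertain by that amount. The other single-exon genes that share more than 50% of their 21-base words with a member held almost no reads: Got2-ps1 had 3 and 0, and the near copies of Me1, Pdhb and Suclg2 had 0.

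The pyruvate dehydrogenase complex is built from E1 (Pdha1 and Pdhb), E2 (Dlat), E3 (Dld) and the E3-binding protein (Pdhx). Of these 5 genes 3 were called higher in replicate 2. Pdha1 had 578 CPM in replicate 1 and 877 in replicate 2, fold 1.64 (95% interval 1.48 to 1.82, adjusted p = 1.07e-19, exact binomial test). Dlat, the acetyltransferase core, had 267 and 409 CPM, fold 1.66 (1.42 to 1.93). Pdhx, which tethers E3 to the core, had 83.2 and 122 CPM, fold 1.59 (1.20 to 2.11). Pdhb, the partner of Pdha1 in the E1 tetramer, had 199 and 205 CPM, and Dld, which the complex shares with other dehydrogenases, had 187 and 174. Their intervals ended at 1.35 and 1.24, below the lower ends of those of Pdha1 and Dlat; the difference between genes was not tested. Pdha1 gave 43.9% of the complex's reads in replicate 1 and 49.1% in replicate 2, Dlat 20.3% and 22.9%, Pdhb 15.2% and 11.5%, Dld 14.2% and 9.75%, and Pdhx 6.33% and 6.82%. Levels of the E1 subunits thus differed within each library, with Pdha1 well above Pdhb in both.

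The kinases held the widest differences. Pdk4, the isoform known to be induced in muscle by fasting and fat use, at chr6:5483351-5496309 (minus strand), had 290 reads (259 CPM) in replicate 1 and 1047 (1073 CPM) in replicate 2. The fold was 4.48 (3.93 to 5.12, adjusted p = 9.20e-137, exact binomial test). Pdk1, a kinase known as a hypoxia target, at chr2:71873224-71903858 (plus strand), had 40 reads (35.8 CPM) and 103 (106 CPM), fold 3.19 (2.20 to 4.73, adjusted p = 3.10e-09). Pdk2, the broadly expressed isoform, at chr11:95026258-95041354 (minus strand), had 656 and 677 CPM, fold 1.12 (1.01 to 1.24), and did not pass (adjusted p = 0.188). Pdk3, at chrX:93764607-93832201, had 2 reads and 0, at or below the floor in both libraries, and was not tested.

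The leading kinase therefore differed between the libraries. Pdk2 gave 68.8% (66.0 to 71.5) of the 1065 Pdk reads in replicate 1 and 36.5% (34.3 to 38.7) of the 1811 in replicate 2. Pdk4 gave 27.2% (24.6 to 30) and 57.8% (55.5 to 60.1), and Pdk1 3.76% and 5.69%. Mean shares over both libraries were 52.7 ± 22.9% for Pdk2 and 42.5 ± 21.6% for Pdk4 (SD, n = 2), so the order of these genes is not set by these data. In sum the kinases had 953 and 1856 CPM, and the genes of the complex itself 1315 and 1787.

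**Figure D3:**
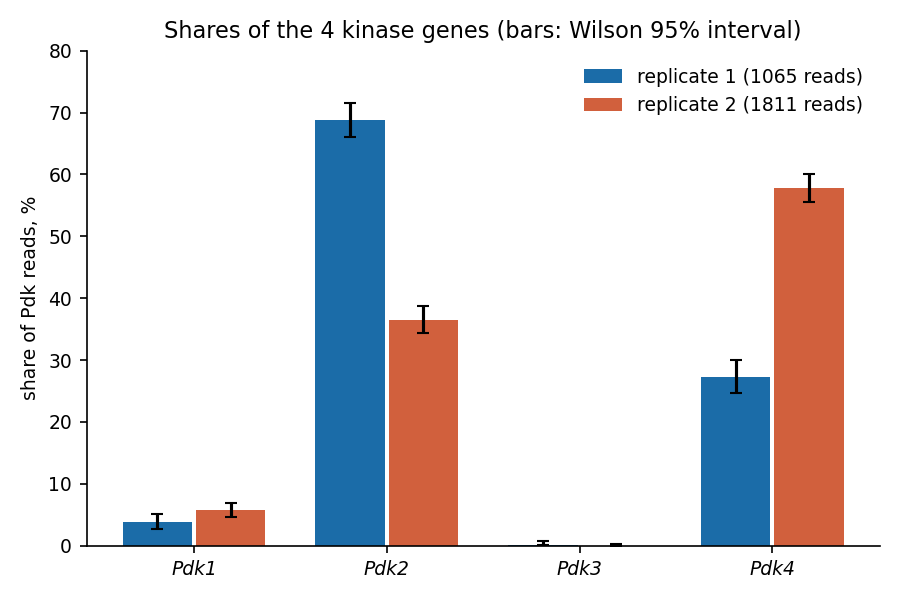
Share of the reads of the 4 Pdk genes (percent) that each took in replicate 1 (blue) and replicate 2 (orange); error bars are Wilson 95% intervals for counting error. Pdk2 leads in replicate 1 and Pdk4 in replicate 2, and their intervals do not overlap within or between the libraries.

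Because Pdk4, Pdk1 and Idh2 were the genes called at a fold of 2 or more, their promoters are shown from RefSeq (GRCm38.p6), up to 250 bases before the start site and stopping before any annotated transcript or leading read model begins. Capitals mark a match to a searched motif:
Pdk4, chr6:5496310-5496528, minus strand: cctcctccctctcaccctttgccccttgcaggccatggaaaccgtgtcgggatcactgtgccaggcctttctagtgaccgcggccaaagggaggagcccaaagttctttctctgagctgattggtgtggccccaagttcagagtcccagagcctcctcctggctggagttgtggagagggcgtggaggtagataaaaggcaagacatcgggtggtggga
Pdk1, chr2:71872974-71873223, plus strand: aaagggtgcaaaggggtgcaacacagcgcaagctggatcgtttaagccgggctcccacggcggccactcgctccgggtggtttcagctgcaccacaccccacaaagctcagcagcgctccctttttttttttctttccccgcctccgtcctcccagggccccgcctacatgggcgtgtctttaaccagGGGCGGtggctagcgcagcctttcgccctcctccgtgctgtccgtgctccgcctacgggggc
Idh2, chr7:80115393-80115600, minus strand: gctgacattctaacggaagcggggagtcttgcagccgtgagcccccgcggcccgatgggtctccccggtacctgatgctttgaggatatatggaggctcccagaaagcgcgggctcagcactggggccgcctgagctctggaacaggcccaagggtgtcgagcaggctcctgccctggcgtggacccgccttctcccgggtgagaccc
The motifs were AAGGTCA (the nuclear receptor element of ERR), GTAAACA (FOXO), TGACGTCA (CRE), GCGCATGCG (NRF1), GGGCGG (Sp1), CTAAAAATA (MEF2) and CACGTG (E box), each sought on both strands. The full 250-base windows of all 32851 promoters held them in 4.08%, 3.17%, 1.55%, 1.45%, 32.7%, 0.469% and 6.02%. The Pdk4 window held none of these letters, the Pdk1 window 1 Sp1 match and the Idh2 window 2, which lie 38 and 18 bases before the RefSeq start, within the 42 bases not printed. The Pdk2 window held 1 E box and the Pdk3 window 1 Sp1 match. No motif was shared by the 3 genes that differed most. The windows had 58.8% (Pdk4), 64.0% (Pdk1) and 67.2% (Idh2) G and C, against a median of 52.4%, and 6, 19 and 17 CG pairs. The leading read model began 31 bases before the RefSeq start for Pdk4, 42 before it for Idh2 and at it for Pdk1.

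The phosphatases, which reactivate the complex, were low. Pdp1, the calcium-stimulated catalytic subunit, had 84.1 CPM in replicate 1 and 75.8 in replicate 2 (fold 1.02, 0.747 to 1.41, higher in replicate 1 after scaling). Pdpr, its regulatory subunit, had 42.9 and 66.6 CPM, fold 1.68 (1.14 to 2.49), and fell just outside the threshold (adjusted p = 0.0624, exact binomial test). Pdp2, the other catalytic subunit and not a member, had 3 reads in each library. Kinase reads outnumbered reads of Pdp1, Pdp2 and Pdpr in both libraries, at 1065 against 145 and 1811 against 142. The leading chains were 2246 bases long for Pdk2, 3484 for Pdk4 and 5185 for Pdk1, against 4201 for Pdp1 and 4938 for Pdpr. The part of length in these counts was not tested. Over Known, NIC and NNC models alone, Pdpr had 31 reads in all. Its log2 ratio of replicate 1 over replicate 2 was then -2.01 in place of -0.74 and passed (adjusted p = 0.00546, exact binomial test). Over Known models alone, 16 reads, it was -1.80 and did not pass (adjusted p = 0.127, same test). Single-exon models that run past the annotated 3' end of Pdpr took 28 of its 48 and 36 of its 65 reads.

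Of the 11 cycle enzymes, 5 were called higher in replicate 2 and 6 were not called. Citrate synthase, Cs, which makes citrate from acetyl-CoA and oxaloacetate, had 444 CPM in replicate 1 and 556 in replicate 2, fold 1.36 (1.20 to 1.53). Idh3a had 756 and 921 CPM, fold 1.32 (1.20 to 1.45). Ogdh, the first subunit of the oxoglutarate dehydrogenase complex, had 474 and 675 CPM, fold 1.54 (1.37 to 1.73), the widest among the cycle enzymes called. Fh1, fumarase, had 269 and 325 CPM, fold 1.31 (1.11 to 1.54). Mdh2, which regenerates oxaloacetate, had 660 and 722 CPM, fold 1.18 (1.07 to 1.31, adjusted p = 0.0169, exact binomial test).

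The other subunits of the same enzymes were not called. Idh3b and Idh3g, the regulatory subunits of isocitrate dehydrogenase, had 341 CPM in both libraries and 152 and 142 CPM, with folds of 1.08 (0.933 to 1.26) and 1.01 (0.805 to 1.28). Idh3a gave 60.5% of the reads of the 3 subunits in replicate 1 and 65.6% in replicate 2, Idh3b 27.3% and 24.3%, and Idh3g 12.2% and 10.1%. Dlst, the E2 partner of Ogdh, had 93.0 and 124 CPM, fold 1.44 (1.10 to 1.89), and missed the threshold narrowly (adjusted p = 0.0508, exact binomial test). Ogdhl, the other oxoglutarate dehydrogenase gene and not a member, had no reads.

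Succinyl-CoA ligase pairs Suclg1 with a beta subunit that sets which nucleotide is made, Sucla2 for ATP and Suclg2 for GTP. Suclg1 had 210 and 190 CPM, Sucla2 466 and 462, and Suclg2 70.7 and 88.1, none of them called. Sucla2 gave 86.8% (83.9 to 89.3) of beta subunit reads in replicate 1 and 84.0% (80.6 to 86.8) in replicate 2. The ATP form was thus the main one in RNA in both libraries, by about the same margin.

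Among the NADP isocitrate dehydrogenases and Aco1, 1 of 3 was called. Idh2, mitochondrial NADP isocitrate dehydrogenase, at chr7:80094846-80115392 (minus strand), had 183 reads (164 CPM) in replicate 1 and 314 (322 CPM) in replicate 2, fold 2.13 (1.77 to 2.57, adjusted p = 1.45e-14, exact binomial test). Its cytosolic relative Idh1 had 25 reads in each library, and Aco1, the cytosolic aconitase that doubles as an iron regulatory protein, had 28 and 31. Idh2 gave 88.0% (82.9 to 91.7) and 92.6% (89.3 to 95.0) of the reads of the pair. At this depth the intervals of Idh1 (0.684 to 2.25) and Aco1 (0.797 to 2.38) still include the fold of Idh2.

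Of the 6 anaplerotic and shuttle genes, Mdh1 and Me1 were called higher in replicate 2. Mdh1, cytosolic malate dehydrogenase, had 323 and 412 CPM, fold 1.38 (1.20 to 1.60). Me1, cytosolic NADP malic enzyme, had 432 and 490 CPM, fold 1.23 (1.08 to 1.40). Pcx, pyruvate carboxylase, had 261 and 219 CPM, Got1, the cytosolic aspartate aminotransferase, 261 and 280, Got2, its mitochondrial form, 164 and 137, and Me3, mitochondrial NADP malic enzyme, 117 and 114, and none of them passed. Pcx and Got2 had the highest log2 ratios of replicate 1 over replicate 2, each 0.14, but with Known models only these turned to -0.03 and -0.15, and with Known, NIC and NNC models that of Pcx was -0.01. Compartments were split unevenly: Mdh2 gave 67.2% and 63.7% of malate dehydrogenase reads, Got1 61.5% and 67.1% of aminotransferase reads, and Me1 78.3% and 80.9% of malic enzyme reads.

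In the wider pathway 43 further symbols were looked up, and 39 annotated genes with reads carried them. Of the 31 tested, 11 were higher in replicate 2, 0 in replicate 1 (1 at an unadjusted p below 0.05), and 20 were not called, with a median log2 ratio of -0.31. In the exact binomial test, the matching shares of all 8394 genes were 7.06% toward replicate 2 and 4.61% toward replicate 1. When only genes with at least 50 reads were tested, 10 of 24 in the list passed, against 24.6% of all 3993 such genes. With the common dispersion in edgeR's exact test, 0 of the 31 were called, against 0.286% of all genes. The genes called by the exact binomial test included the succinate dehydrogenase subunits Sdha (706 and 862 CPM) and Sdhb (496 and 608), the oxoglutarate carrier Slc25a11 (295 and 346), the acetylcarnitine enzyme Crat (487 and 656), and lactate dehydrogenase Ldha (7188 and 7478). Larger folds were seen for Ldhb, the heart-type lactate dehydrogenase subunit (101 and 262 CPM, fold 2.81), Oxct1, which activates ketone bodies (160 and 352, fold 2.38), Gpt (14.3 and 31.8, fold 2.40), Acss1 (25.9 and 52.3, fold 2.18) and 1 of the 2 overlapping annotated genes named Nnt (9.84 and 25.6, fold 2.82). All 11 called lay on the side of replicate 2, as the 13 called members did. Both sets rest on the same libraries.

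Longer chains tended to lower ratios of replicate 1 over replicate 2. Over the 31 members with a leading chain, Pearson's r between log2 length of that chain and the log2 ratio was -0.36, against -0.43 over 3521 genes, as a description across genes that share the 2 libraries. Of the genes called at 2-fold or more, Pdk1 had the longest chain (5185 bases), Pdk4 one of 3484 and Idh2 one of 1745, below the members' median of 2544. Long chains also occurred among genes that were not called, such as Pcx (4148 bases), Pdp1 (4201) and Me3 (4485). The part of length in the calls was not tested.

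Most of the 33 genes used 1 transcript. Over Known models and the classes NIC (annotated splice sites in an unannotated combination) and NNC (at least 1 unannotated site), 31 genes had 20 or more reads in each library. In 23 of them the leading intron chain held at least 90% in both libraries, and in only 3 (Ogdh, Got2 and Me3) did it fall below 80% in either. The share differed for 0 of 31 genes (2-sided Fisher's exact test, Benjamini-Hochberg over 3292 genes), where 0.486% of all genes were called; 5 had an unadjusted p below 0.05, and the smallest adjusted p was 0.431 (Idh3a). For Pdk4 the leading chain Pdk4-201 held 232 of 238 and 870 of 884 such reads, for Pdk1 Pdk1-201 held 25 of 30 and 79 of 83, for Pdk2 Pdk2-201 held 666 of 676 and 607 of 613, and for Idh2 Idh2-201 held 161 of 173 and 292 of 298. The genes that differed most in level thus used the same chain in both libraries.

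In 4 of the 31 genes the chain that led over both libraries together was not annotated: Mpc1, Idh3g, Idh3b and Got2. For Got2 the annotated Got2-201 led in replicate 2, with 47 reads against 42. Over all genes with 20 or more Known, NIC and NNC reads in each library the share was 7.81% (275 of 3521), so 12.9% here rests on few genes. Idh3g (chrX:73778963-73786897, minus strand) resembled Mpc1. Its annotated chain Idh3g-201 holds a 12-base coding exon at chrX:73782298-73782309. The leading model instead extends the exon before the 12-base one by 4 bases and skips the 12. The bases printed for that model are GENCODE M21 bases joined as it joins them. The junction is shown with the differing bases in capitals:
Idh3g-201, GENCODE M21: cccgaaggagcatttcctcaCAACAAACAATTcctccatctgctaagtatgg
leading chain of the reads: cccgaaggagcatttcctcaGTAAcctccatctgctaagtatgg
This chain held 151 of 162 reads in replicate 1, where it was classed NNC, and 122 of 132 in replicate 2, where the same chain was classed NIC. The annotated chain had 0 reads in both. From the annotated start codon the chain stops after 46 codons, against 393 in Idh3g-201.

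Short exons were rare in the models of all genes. Among 5438 annotated cassette exons, meaning exons that some annotated transcripts hold and others skip, all 21 of 6 bases or fewer had an inclusion below 5% over both libraries. The same held for 33 of 34 exons of 7 to 12 bases (97.1%), 73.3% of those of 13 to 24, 28.2% of those of 25 to 50, and 21.9% of longer ones. The files hold models and not reads, so whether the Mpc1 and Idh3g molecules lacked these exons was not tested.

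**Figure D4:**
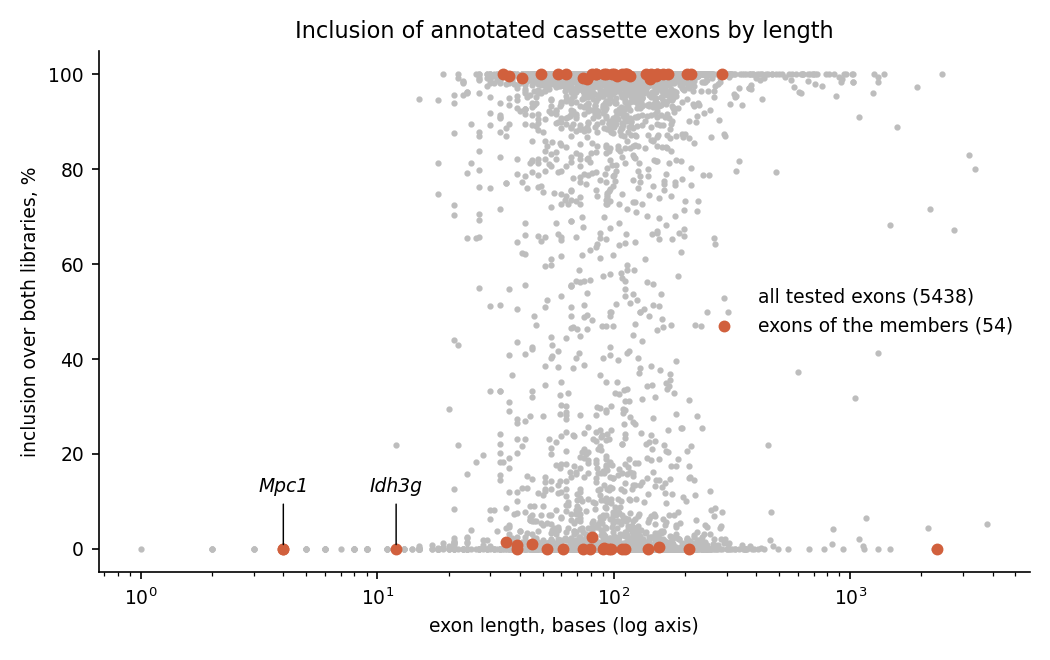
Inclusion over both libraries (percent) against exon length (bases, log axis) for 5438 annotated cassette exons (grey) and the 54 of the members (orange). Members lie near 0 or near 100, and the short exons of Mpc1 (4 bases) and Idh3g (12 bases) sit at 0 with nearly all exons of that length.

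Idh3b differed in another way. Its leading chain, with 327 of 347 reads in replicate 1 and 295 of 308 in replicate 2, used the long intron chr2:130279438-130280262 and ended in a last exon of 129 bases, where Idh3b-201 has 418. The annotated chain had 4 and 1 reads. Both ends of the intron are annotated, the donor in Idh3b-201 and the acceptor in Idh3b-204, a transcript classed as a target of nonsense-mediated decay. The coding sequence differs from this junction on, shown with the bases after it in capitals:
Idh3b-201, GENCODE M21: atcaaagctggcaagGTACGGACTCGAGAC
leading chain of the reads: atcaaagctggcaagGTTCGAACCTCAGAT
The chain runs to 380 codons with its stop in the last exon, against 384 in Idh3b-201. In both libraries the main chain thus predicted a coding end that differs from that of Idh3b-201.

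Got2 was split. A chain whose last intron is shifted by 4 bases at both ends (chr8:95865248-95866816 against the annotated chr8:95865252-95866820) held 71 of 129 reads in replicate 1 (55.0%, 46.4 to 63.4) and 42 of 92 in replicate 2 (45.7%, 35.9 to 55.8), and Got2-201 held 53 and 47. Both introns are 1569 bases long. The bases at the shifted site were not read here, so its effect on the coding sequence was not computed.

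Further chains reached 10% in a few genes. For Idh3a the chain of Idh3a-203, annotated as retaining an intron, held 11.5% (9.51 to 13.9) and 7.67% (6.08 to 9.65) beside 83.7% and 88.4% for Idh3a-205. For Fh1 that of Fh1-203, annotated likewise, held 12.3% (9.04 to 16.6) and 8.31% (5.73 to 11.9). Both are shorter chains, with 8 exons against 11 in Idh3a-205 and 3 exons against 10 in Fh1-201. Whether their reads came from whole molecules was not tested. For Me3 a chain with an extra first exon held 7.38% (3.93 to 13.4) and 18.2% (11.8 to 26.9). Pdpr had only 7 and 24 such reads, of which Pdpr-201 held 4 and 12. Ogdh was led by Ogdh-201 with 81.4% and 78.1%, and its other reads were spread over many chains.

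By the donor site of the first intron, Ogdh reads fell mainly on 3 annotated first exons, of which those of Ogdh-201 and Ogdh-204 overlap. That of Ogdh-201, at chr11:6291633-6291693, began 349 reads in replicate 1 (85.5%, 81.8 to 88.6) and 401 in replicate 2 (82.2%, 78.5 to 85.3). That of Ogdh-204, at chr11:6291666-6291769, began 6.13% and 10.5%, and that of Ogdh-207, at chr11:6291985-6292291, 5.64% and 4.92%. In Me3 the first exon of Me3-205 began 7.38% (3.93 to 13.4) and 19.2% (12.6 to 28.0), and that of Me3-202 90.2% and 76.8%. Pdp1, which has alternative first exons in the annotation, was read almost wholly from that of Pdp1-203, with 82 of 90 and 63 of 68 reads.

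In the models, annotated cassette exons were held by nearly all spanning reads or by nearly none. Of 54 such exons with 20 spanning reads in each library, in 23 genes, 32 were included above 95% in both libraries, 22 below 5% in both, and none lay between. The 22 include the 4-base exons of Mpc1 and the 12-base exon of Idh3g, whose absence from the molecules was not tested. Inclusion differed for 0 of 54 (Fisher's exact test, Benjamini-Hochberg over 5438 exons; 0 at an unadjusted p below 0.05), where 0.331% of all exons were called. In Ogdh the annotation offers 2 neighbouring exons, of 91 bases at chr11:6316765-6316855 and of 103 bases at chr11:6316978-6317080. The 103-base exon was held by 415 of 415 and 498 of 500 spanning reads, the 91-base exon by 0 of 415 and 1 of 500. A 45-base exon further on, at chr11:6324878-6324922, was held by 1.44% (0.659 to 3.10) and 0.598% (0.203 to 1.74).

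Partial chains (incomplete splice matches, models that hold only part of an annotated chain) took a median of 4.64% of a member's reads in replicate 1 and 4.20% in replicate 2, against 5.63% and 5.0% over all genes tested. They stayed below 10% in both libraries for 24 of 32 genes. They were most common in Pdpr (85.4% and 63.1%), Dlst (41.3% and 43.8%), Pcx (41.8% and 20.6%), Ogdh (22.6% and 25.8%) and Pdk1 (20.0% and 19.4%). For 2 genes the share differed between the libraries (Fisher's exact test, Benjamini-Hochberg over 4057 genes), where 3.11% of all genes were called. For Pdk4 it was 5.52% in replicate 1 and 15.1% in replicate 2 (adjusted p = 0.000360), and for Pcx the shares just given differed (adjusted p = 5.49e-05). The most abundant single-exon models near the 3' ends were named differently in the libraries. For Pdk4 these were a model of 1135 bases classed Genomic with 36 reads in replicate 1 and one of 2242 bases classed partial with 96 in replicate 2. For Pcx they were one of 640 bases classed partial with 58 reads and one of 104 bases classed Genomic with 31. With single-exon Genomic models counted as partial, an alternative chosen after the data were seen, Pdk4 had 17.9% and 15.2% (adjusted p = 0.990) and Pcx 41.8% and 35.0% (adjusted p = 0.845). Of the members' spliced chains read in both libraries, 6 of 237 carried different class names, against 4.69% over all genes.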

How the data were processed

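RNA of 2 gastrocnemius libraries was read as long reads, per the labels, on the mm10 assembly, per the readme deposited with the files. The deposited tables give raw counts of reads per transcript model, named by TALON on GENCODE M21 per the file headers, with the exon number and length of each model; the aligner is not given in the sources used here. A gene's count was the sum of its models, and libraries were matched by intron chain.

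Gene levels were compared by exact binomial tests against TMM library sizes (edgeR 4.0.16, R 4.3.3, factors 1.04 and 0.961), for genes whose summed count in the pair was 10 or more. Shares were compared by Fisher's exact test where each library had at least 20 reads (scipy 1.17.1). All were adjusted by Benjamini-Hochberg at 0.05. The gene and leading-chain tests were tried on simulated counts with counting error only. Such counts cannot show how the tests behave with scatter between libraries. With 1 library per side no quasi-likelihood fit was possible. Intervals are 95% (Wilson, or exact for folds) and cover counting error only. DESeq2 1.42.0 gave alternative size factors.

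The members and lists were chosen with earlier results of these data known. Text names all members, called genes of the pathway list and its 3 most abundant (1 gene of that list is not reported here), chains of at least 10%, and promoters of Pdk genes and members at 2-fold. Sequences are from GENCODE M21 and RefSeq (GRCm38.p6).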

Additional observations from a re-analysis of the deposited data

Results flagged for a closer look

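Reads on the strand opposite to Pdk4 stood out among unannotated loci. A single-exon model of 465 bases at chr6:5483351-5483815 (plus strand), over the 3' end of Pdk4, held 5 reads in replicate 1 and 27 in replicate 2, above the 3 reads that a count of 0 allows. These were 1.72% (Wilson 95% interval 0.739 to 3.97) and 2.58% (1.78 to 3.73) of the reads of Pdk4 itself. No other single unannotated model over a member had more than 3 reads in either library.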

How the results depend on the processing

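The 13 members called remained called with DESeq2 size factors, with all genes of at least 1 read, and with Known models only. The shares of all genes called were then 11.7%, 5.86% and 11.1%. Scaling by total reads, which moved the median log2 ratio of all genes by 0.11, left 10 (Fh1, Mdh2 and Me1 were lost), with all 10 still higher in replicate 2; over all genes the calls were then 586 higher in replicate 1 and 452 in replicate 2, in place of 387 and 593. Genes with at least 50 reads gave 15, adding Dlst and Pdpr, while the share of all genes called rose from 11.7% to 24.6%. Known, NIC and NNC models gave 14, adding Pdpr. With the common dispersion of edgeR's exact test 1 member (Pdk4) and 0 genes of the pathway list were called. The sign of uncalled members turned for 5 with total reads, 3 with Known models only (Pcx, Got2 and Me3), 2 with Known, NIC and NNC models (Mpc1 and Pcx), and 1 (Mpc1) with the reads of its pseudogene added. The members' share of reads was 1.27% with Known models only. With Known, NIC and NNC models Pdp1 gave 81.6% of phosphatase reads, Pdp2 2.04% and Pdpr 16.4%, and Got1 gave 70.5% and Got2 29.5% of aminotransferase reads. With single-exon Genomic models counted as partial chains, 0 members were called in place of 2, and the difference of Pdk4 turned to -2.74 percentage points. The cause of these changes was not tested. Leaving out a library left no test, and gave the members 0.855% to 1.08% of reads. Depth limits Idh1, Aco1 and Pdk3 most, with 25 to 31 reads or fewer in each library.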
